A study of Mus musculus with 32 samples.

Results

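The genes described here are 32 named mouse genes of astrocytes and radial glia, chosen by name from the 49671 genes of the deposited count table. Each was found under exactly 1 Ensembl identifier, and all 32 passed the filter on low counts. The table holds 32 libraries of poly(A)-selected, stranded RNA-seq from primary wild-type (WT) mouse cortical neuron cultures, in 8 groups of 4 biological replicates. The groups were untreated cultures and cultures exposed to Mut.oligo, to miR-124-5p or to miR-92a-1-5p in the medium, each harvested after 6 h and after 5 d, and the study asked how extracellular miRNAs change neuronal gene expression. All groups shared the WT genotype and the B27-supplemented Neurobasal medium. The study's methods describe late-embryonic C57BL/6 forebrain cortices freed of meninges, and synthetic oligoribonucleotides. The study regards these cultures as highly enriched in neurons and largely free of glia. Mut.oligo is a control oligoribonucleotide with a mutated miRNA sequence. There is a doubt whether the names miR-124-5p and Mut.oligo were exchanged between libraries. It was not tested here, so that every value given for either stands for the libraries so labelled. Total counts per library ranged from 24514090 to 73626029. The labels name an experiment batch for each library, written here as batches A to G at 6 h and H to M at 5 d. The year given with the batch was 2021 for every 6 h library and 2022 for every 5 d library. No batch spanned both times, so that batch, year and time cannot be told apart.

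Radial glia are the neural stem cells of the embryonic cortex, and late in gestation and after birth many of them turn from making neurons to making astrocytes. Notch signaling through RBPJ and the HES repressors keeps radial glia undifferentiated, while SOX9 and nuclear factor I proteins, together with STAT3 downstream of cytokine receptors, promote astrocyte genes. Mature astrocytes clear glutamate and potassium, supply glutamine, and couple to each other through gap junctions.

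miR-92a-1-5p, the oligoribonucleotide after which Nes was lower at 5 d in the fits with batch, is shown as its endogenous mature miRNA, taken from RefSeq (GRCm38.p6, chr14:115044437-115044459, forward strand), with the seed, bases 2 to 8, in capitals.
miR-92a-1-5p: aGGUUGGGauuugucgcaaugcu
miR-124-5p had no entry in the sequence table used and is named only.

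Promoter windows, from 250 bases before to 50 bases after the start of transcription, were available from RefSeq (GRCm38.p6) for 27 of the 32 genes, and Aqp4, Atp1b2, Clu, Hes1 and Sox9 are named only. Shown are Gfap, Ntsr2 and Slc1a3, which were higher at 5 d, with Hes5, a Notch target, and Nes, which was lower. Capitals mark matches, on either strand, to the RBPJ core TGGGAA or the STAT element TTCNNNGAA. The windows are chr11:102897151-102897450 (reverse strand) for Gfap, chr12:16653220-16653519 (forward) for Ntsr2, chr15:8710758-8711057 (reverse) for Slc1a3, chr4:154960673-154960972 (forward) for Hes5 and chr3:87970843-87971142 (forward) for Nes.
Gfap: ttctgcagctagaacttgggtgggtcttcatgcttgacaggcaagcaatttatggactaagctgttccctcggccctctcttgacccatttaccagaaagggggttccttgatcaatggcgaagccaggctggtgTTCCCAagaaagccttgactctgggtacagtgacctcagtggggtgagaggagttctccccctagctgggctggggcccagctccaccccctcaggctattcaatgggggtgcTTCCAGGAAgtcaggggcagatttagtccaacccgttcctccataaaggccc
Ntsr2: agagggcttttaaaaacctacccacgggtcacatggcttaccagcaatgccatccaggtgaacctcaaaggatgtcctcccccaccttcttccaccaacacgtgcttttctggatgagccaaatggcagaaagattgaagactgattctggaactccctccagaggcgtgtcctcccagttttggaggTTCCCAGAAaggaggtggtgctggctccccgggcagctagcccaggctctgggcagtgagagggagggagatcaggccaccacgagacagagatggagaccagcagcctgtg
Slc1a3: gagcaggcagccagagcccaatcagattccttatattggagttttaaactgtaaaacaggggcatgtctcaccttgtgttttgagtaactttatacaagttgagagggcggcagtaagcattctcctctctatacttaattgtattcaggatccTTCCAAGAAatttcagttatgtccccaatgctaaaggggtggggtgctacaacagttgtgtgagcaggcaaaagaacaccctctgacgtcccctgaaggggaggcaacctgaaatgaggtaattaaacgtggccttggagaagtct
Hes5: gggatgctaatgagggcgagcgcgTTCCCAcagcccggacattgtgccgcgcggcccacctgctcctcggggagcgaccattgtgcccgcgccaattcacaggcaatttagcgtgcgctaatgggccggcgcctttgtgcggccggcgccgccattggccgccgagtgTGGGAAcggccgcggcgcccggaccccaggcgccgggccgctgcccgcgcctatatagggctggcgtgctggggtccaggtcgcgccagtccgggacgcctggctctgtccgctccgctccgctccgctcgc
Nes: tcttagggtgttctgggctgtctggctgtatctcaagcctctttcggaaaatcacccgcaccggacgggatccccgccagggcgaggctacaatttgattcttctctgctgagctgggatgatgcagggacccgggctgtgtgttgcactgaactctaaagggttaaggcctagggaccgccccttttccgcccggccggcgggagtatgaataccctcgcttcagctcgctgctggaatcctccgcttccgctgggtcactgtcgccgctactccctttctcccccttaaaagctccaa
In Gfap the RBPJ core began at -115 and the STAT element at -2 relative to the start, and in Slc1a3 a STAT element began at -96. In Ntsr2 both matches began at -62 and overlapped. Hes5 held RBPJ cores at -226 and -82, and the Nes window held neither. The RBPJ core was present in 13 of 33 promoter windows of the 27 genes and in 25.6% of all 32851 windows in the table. The STAT element was present in 4 of 33 (Aldoc, Gfap, Ntsr2 and Slc1a3) against 8.3% of all windows. The nuclear factor I core TTGGCA was present in 3 of 33 (Aldoc, S100b and Tnc) against 14.1%. Among 17 genes with windows that were higher at 5 d, 8 held the RBPJ core and 4 the STAT element. The nuclear factor I core was held by 2 of these 17. Of the 3 lower genes, Tnc held the RBPJ and nuclear factor I cores, and Nes and Fgfbp3 held no match. These matches are a description of the letters in the windows and not a measure of binding.

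In untreated cultures, 21 of the 32 genes were higher at 5 d than at 6 h, against 19.1% of all 20425 genes tested, and 3 were lower, against 14.3% of all genes. A gene was called where edgeR's quasi-likelihood test gave a Benjamini-Hochberg adjusted p under 0.05 and the log2 fold change was above 0.5 in size. The median log2 fold change was 1.12 over the 32 genes and 0.04 over all genes. All 6 genes of glutamate and serine handling and metabolism were higher (median log2 fold change 1.80), and so were 6 of 7 genes of water, ion and gap junction proteins (median 1.38). Of 9 receptors, secreted proteins and small calcium or lipid binding proteins, 6 were higher and 2 lower, and of 3 intermediate filament genes 1 was higher and 1 lower. Of 7 transcription regulators, 2 were higher and 5 were not called. All 4 libraries at 5 d lay above all 4 at 6 h for 22 genes (23.6% of all genes tested) and below them for 2 genes, Nes and Tnc (24.3%). In these bulk libraries, fewer cells of a type and less RNA per cell cannot be told apart.

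Some genes appeared at only 1 of the 2 times, which bears on how reads were counted. For this check, CPM is the read count scaled only to the total counts of the library, without the TMM scaling of edgeR. Among all genes, 12 lay above 1 CPM in every 5 d library and under 0.1 CPM in every 6 h library. Exons of 11 of these 12 overlapped exons on the opposite strand. That is 91.7%, against 31.8% of 12380 annotated genes above 1 CPM in every library. The reverse pattern was seen in 40 genes, and 17 of the 39 annotated ones, 43.6%, had such an overlap. Whether reads were counted alike at both times was not tested, and it cannot be told apart from time. Of the 32 genes, 23 have no exon overlap on the opposite strand. With all overlapping genes left out of the fit, 14 of these 23 were higher (18.2% of the 14121 genes left) and 2 lower (12.8%) in untreated cultures, with a median log2 fold change of 1.28. The 9 genes with an overlap are Slc1a2, Glul, Slc7a10, Aldh1l1, Ttyh1, Hes5, Hopx, Fgfr3 and Tnc, and the overlap covers between 1.44% of the exon bases in Slc1a2 and 31.8% in Hes5. Comparisons within a time are not touched by this.

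**Figure D1:**
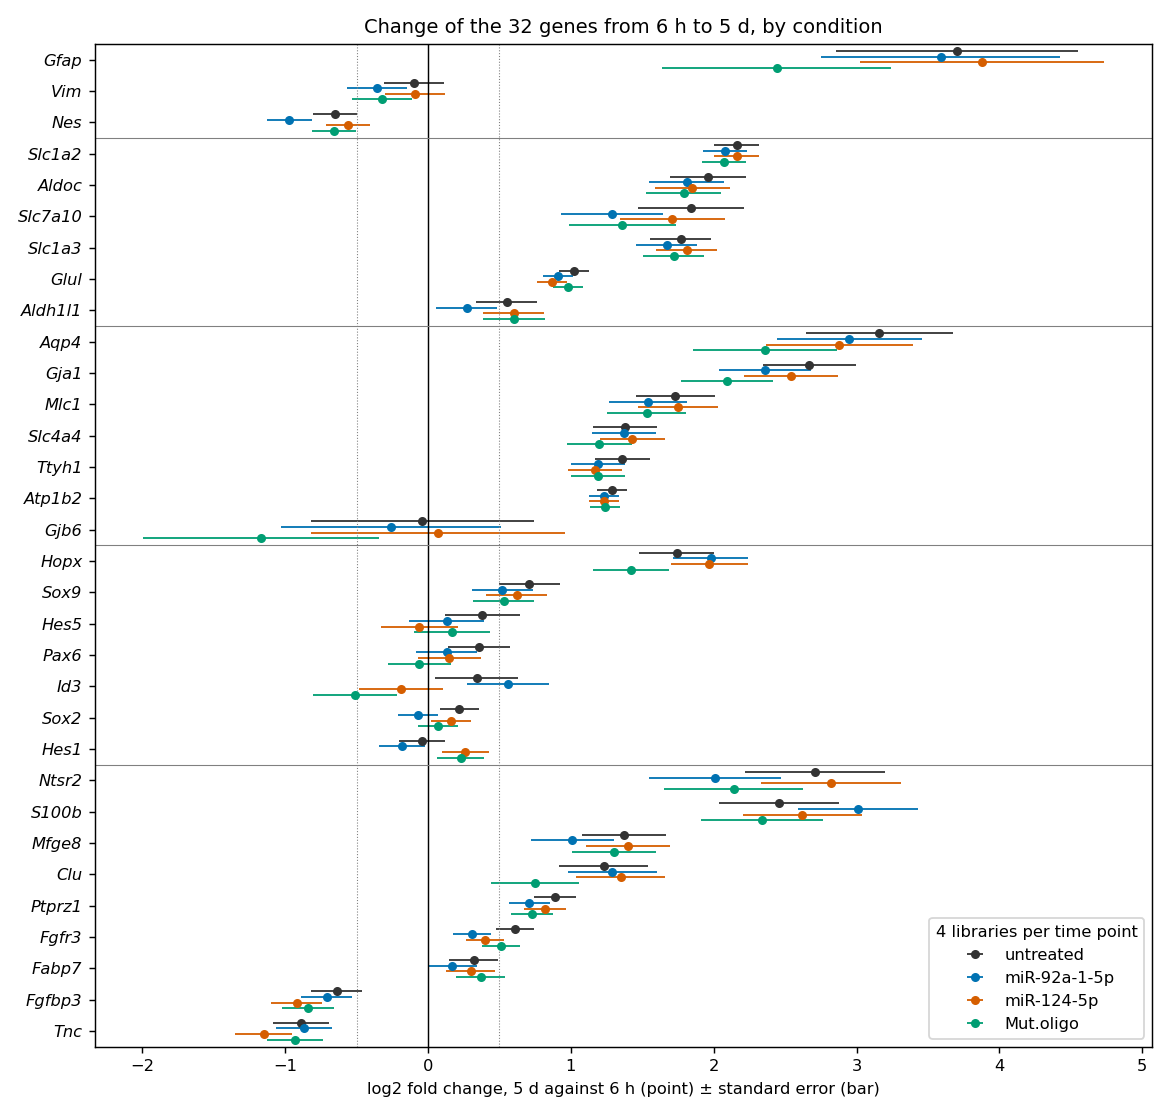
Log2 fold change from 6 h to 5 d (x axis, point) with its standard error (bar) for the 32 genes (y axis, ordered by role and then by the change in untreated cultures), in each of the 4 conditions by colour, 4 libraries per time. Gfap and Aqp4 lie farthest to the right in untreated cultures, at 3.70 and 3.16, while Tnc, Nes and Fgfbp3 lie left of 0 in each condition.

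Among intermediate filaments, Gfap, the classical marker of maturing and reactive astrocytes, had the largest rise of the 32 genes. From here on CPM is the normalised read count of edgeR, scaled to library size by TMM. Values by library are given in CPM in the order of replicates 1 to 4, here and for the other genes. In untreated cultures Gfap was at 8.05, 18.2, 7.56 and 35.9 CPM at 6 h (17.4 ± 13.2, SD, n = 4) and 507, 54.2, 237 and 115 CPM at 5 d (228 ± 201, SD, n = 4). The groups did not overlap, but the lowest 5 d library lay much nearer to the highest 6 h library than to the highest 5 d library. The log2 fold change was 3.70 ± 0.847, adjusted p = 0.00047, a 13-fold difference. It was 2.98 without untreated 5 d replicate 1 and 4.38 without untreated 6 h replicate 4. Vim, which encodes the vimentin filament of radial glia and many other cells, was at 181, 278, 181 and 223 CPM at 6 h and 239, 139, 268 and 160 CPM at 5 d. The groups overlapped, and the change was not called (log2 fold change -0.10 ± 0.21, adjusted p = 0.708). Nes, which encodes the nestin filament of neural stem cells, was at 85.8, 118, 92.1 and 87.7 CPM at 6 h (95.9 ± 14.9, SD, n = 4) and 69.5, 55, 56.2 and 63 CPM at 5 d (60.9 ± 6.74, SD, n = 4). Every 5 d library was below every 6 h library, and Nes was lower at 5 d by a log2 fold change of -0.65 ± 0.153, adjusted p = 0.000615. Thus within the filament genes Gfap was higher, Nes lower and Vim not called in the same cultures.

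The 6 genes of glutamate and serine handling and metabolism were all higher. Slc1a2 encodes GLT-1, the main glutamate transporter of mature astrocytes, and was at 138, 159, 161 and 161 CPM at 6 h and 762, 591, 831 and 593 CPM at 5 d. The libraries of each time lay close together and far from those of the other time, with a log2 fold change of 2.16 ± 0.155, adjusted p = 1.08e-12. Slc1a3 encodes GLAST, the glutamate transporter that radial glia already use, and was at 183, 287, 242 and 310 CPM at 6 h and 928, 714, 1080 and 757 CPM at 5 d. Its groups were apart as well, and its log2 fold change was 1.77 ± 0.214, adjusted p = 4.44e-08. Glul, which encodes glutamine synthetase, had a smaller but narrowly spread change of 1.02 ± 0.104, adjusted p = 1.82e-09. Aldoc, a glycolytic aldolase of astrocytes, and Slc7a10, a transporter of small neutral amino acids including serine, were higher by log2 fold changes of 1.96 and 1.84. Aldh1l1, a folate enzyme used as a pan-astrocyte marker, was nearest to the threshold (0.55 ± 0.215, adjusted p = 0.0305). Its call was lost without untreated 6 h replicate 1 (0.43, adjusted p = 0.109), without 6 h replicate 3 (0.54, adjusted p = 0.0603) or without 5 d replicate 3 (0.49, adjusted p = 0.0747), all by edgeR.

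Of the water, ion and gap junction proteins, Aqp4, the water channel of astrocyte endfeet, was at 7.84, 15.4, 14.2 and 38.4 CPM at 6 h and 249, 102, 215 and 119 CPM at 5 d. Replicate 4 was the highest library at 6 h, and replicates 1 and 3 were the high ones at 5 d. The log2 fold change was 3.16 ± 0.517, adjusted p = 6.15e-06, and 3.81 without untreated 6 h replicate 4. Gja1, which encodes connexin 43 of astrocyte gap junctions, was at 24.6, 46.3, 29.9 and 42 CPM at 6 h and 252, 134, 359 and 163 CPM at 5 d. Its log2 fold change was 2.67 ± 0.327, adjusted p = 5.42e-08, with no overlap between the times. Mlc1, a membrane protein of astrocyte junctions, the bicarbonate transporter gene Slc4a4, the tweety family gene Ttyh1 and Atp1b2, a beta subunit of the sodium pump, were higher by log2 fold changes between 1.29 and 1.73. Gjb6, which encodes connexin 30 of mature astrocytes, was the member of this group that was not called, at -0.04. It was counted 3 to 9 times per untreated library at 6 h and 1 to 21 times at 5 d, so that its change could be measured only coarsely, and its log2 fold change was -0.67 without untreated 5 d replicate 1.

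Of the transcription regulators, Sox9 and Hopx were higher and the other 5 were not called. Sox9, a regulator of gliogenesis, was at 20.8, 35, 28.3 and 35.8 CPM at 6 h and 53.9, 39.2, 65.1 and 38 CPM at 5 d, with a log2 fold change of 0.71 ± 0.213, adjusted p = 0.00565. Every 5 d library lay above every 6 h library, by a narrow margin. Hopx, a homeodomain protein of radial glia, was higher by 1.74 ± 0.263, adjusted p = 1.94e-06. Hes1, a repressor induced by Notch, was at 2.98, 3.75, 2.7 and 3.98 CPM at 6 h and 3.37, 3.37, 3.34 and 2.99 CPM at 5 d, and the 5 d values lay inside the 6 h range. Hes5, another Notch target, was at 5.11, 6.7, 7.22 and 8.69 CPM at 6 h and 9.33, 13.2, 8.24 and 5.52 CPM at 5 d, and its groups overlapped. Neither was called: the log2 fold changes were -0.04 ± 0.162, adjusted p = 0.852 for Hes1 and 0.38 ± 0.264, adjusted p = 0.229 for Hes5. Pax6, Id3 and Sox2, regulators of neural progenitors, had values between 0.22 and 0.36 and were not called. Pax6 passed the test without untreated 5 d replicate 2 (0.54, adjusted p = 0.0423, edgeR).

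Among receptors, secreted proteins and binding proteins, Ntsr2, a neurotensin receptor of astrocytes, was at 0.71, 1.4, 0.952 and 1.76 CPM at 6 h and 11.5, 3.93, 11.8 and 4.79 CPM at 5 d. The times did not overlap, although the 5 d libraries spread from 3.93 to 11.8 CPM. The log2 fold change of Ntsr2 was 2.71 ± 0.492, adjusted p = 2.75e-05. S100b, which encodes a calcium binding protein of maturing astrocytes, was at 0.304, 0.476, 0.369 and 1.24 CPM at 6 h and 4.5, 2.8, 3.69 and 2.55 CPM at 5 d. It was low but apart in all libraries, with a log2 fold change of 2.46 ± 0.42, adjusted p = 1.18e-05, or 3.17 without untreated 6 h replicate 4. Mfge8 and Clu, which encode secreted proteins, Ptprz1, a receptor phosphatase of radial glia, and Fgfr3, an FGF receptor of astrocyte precursors, were higher by log2 fold changes of 1.37, 1.23, 0.89 and 0.61. Fabp7, the brain lipid binding protein of radial glia, was above its 6 h libraries in every 5 d library, yet its log2 fold change of 0.32 was under the threshold. Tnc, which encodes tenascin C of the stem cell niche, was at 129, 152, 229 and 164 CPM at 6 h and 75.7, 86.6, 86.8 and 116 CPM at 5 d. Tnc was lower in every 5 d library, by -0.89 ± 0.197, adjusted p = 0.000341. Fgfbp3, which encodes a secreted FGF carrier, was at 19.2, 30.3, 30.9 and 30.7 CPM at 6 h and 15.4, 17.2, 17.7 and 21.2 CPM at 5 d. Fgfbp3 was lower by -0.64 ± 0.178, adjusted p = 0.00315, although the highest 5 d library was above the lowest 6 h library.

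Levels between genes were compared per kilobase of exon, as mean CPM per kilobase over the 4 untreated libraries. Fabp7 was the highest of the 32 genes at both times (465 ± 93.8 at 6 h and 580 ± 23.5 at 5 d, SD, n = 4). Glul came second at both times, with 64.2 ± 8.68 and 130 ± 11.9. Gfap moved from position 21 of 32 at 6 h (4.13 ± 3.14) to position 9 at 5 d (54.2 ± 47.6), an uncertain position given its SD. Aqp4 moved from position 25 to 15, and Slc1a3 from 6 to 3. In the other direction, Nes moved from position 15 to 22 and Tnc from 9 to 20. Gjb6 was the lowest at both times.

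After each oligoribonucleotide the change from 6 h to 5 d was of the same kind. With Mut.oligo, 21 genes were higher and 3 lower (18.7% and 15.4% of all genes), with a median log2 fold change of 0.87. With miR-124-5p the counts were 20 and 3 (19.5% and 14.7%), with a median of 1.02, and with miR-92a-1-5p 19 and 3 (18.3% and 15.7%), with a median of 0.96. Tnc, Nes and Fgfbp3 were the lower genes in all 4 conditions. With genes of opposite-strand overlap left out, 14 of 23 were higher and 2 lower in each of the 4 conditions. Of all genes in that fit, 17.0% to 17.7% were higher and 13.6% to 14.4% lower after the oligoribonucleotides. Aldh1l1, at 0.27, and Fgfr3, at 0.31, were called in untreated cultures but not after miR-92a-1-5p, and Fgfr3, at 0.40, was not called after miR-124-5p. Sox9 was near the threshold after each oligoribonucleotide, with log2 fold changes of 0.53 for Mut.oligo, 0.62 for miR-124-5p and 0.52 for miR-92a-1-5p. Its call was dropped without miR-92a-1-5p 6 h replicate 1 or 2 or 5 d replicate 1 or 2, without miR-124-5p 6 h replicate 2 or 5 d replicate 1, and without Mut.oligo 6 h replicate 2 or 3 or 5 d replicate 1 or 4, at values between 0.34 and 0.55. The call of Nes after miR-124-5p, at -0.56, was lost without miR-124-5p 6 h replicate 1 (-0.49) or 3 (-0.46) or 5 d replicate 3 (-0.45), where the size fell under 0.5.

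The Gfap values at 6 h were 37.4, 10.8, 6.48 and 67.6 CPM after Mut.oligo, 39.9, 6.69, 16.8 and 9.13 CPM after miR-124-5p and 9.31, 12.7, 41.5 and 17.2 CPM after miR-92a-1-5p. At 5 d they were 402, 32.4, 119 and 108 CPM after Mut.oligo, 409, 451, 99.4 and 98.1 CPM after miR-124-5p and 314, 428, 140 and 90 CPM after miR-92a-1-5p. In each condition the spread within a time was several-fold, and after Mut.oligo the lowest 5 d library lay below the highest 6 h library. The log2 fold changes of Gfap were 3.59 ± 0.837, adjusted p = 0.000546 with miR-92a-1-5p, 2.44 ± 0.803, adjusted p = 0.011 with Mut.oligo and 3.88 ± 0.855, adjusted p = 0.000304 with miR-124-5p. The Mut.oligo value fell to 1.51 without 5 d replicate 1 (adjusted p = 0.108, not called) and was 3.20 without 6 h replicate 4. The values were 4.24 without miR-92a-1-5p 6 h replicate 3 and 4.62 without miR-124-5p 6 h replicate 1. Aqp4 at 6 h was at 34.8, 10.1, 9.85 and 41.2 CPM after Mut.oligo, 38.9, 9.08, 15.7 and 15.6 CPM after miR-124-5p and 16.1, 11.8, 42.2 and 17.5 CPM after miR-92a-1-5p. At 5 d Aqp4 was at 205, 86.6, 98.5 and 101 CPM after Mut.oligo, 141, 212, 118 and 110 CPM after miR-124-5p and 219, 220, 125 and 108 CPM after miR-92a-1-5p. Unlike Gfap, Aqp4 was apart between the times in each condition, with log2 fold changes of 2.36, 2.88 and 2.95.

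For Slc1a2 the 6 h values were 143, 129, 131 and 158 CPM after Mut.oligo, 141, 130, 147 and 151 CPM after miR-124-5p and 146, 133, 149 and 161 CPM after miR-92a-1-5p. Its 5 d values were 758, 597, 462 and 534 CPM after Mut.oligo, 597, 790, 537 and 619 CPM after miR-124-5p and 791, 735, 471 and 487 CPM after miR-92a-1-5p. Every 5 d library was far above every 6 h library for Slc1a2. For Slc1a3 the 6 h values were 282, 184, 141 and 321 CPM after Mut.oligo, 286, 137, 232 and 244 CPM after miR-124-5p and 242, 185, 277 and 257 CPM after miR-92a-1-5p. Its 5 d values were 887, 706, 696 and 758 CPM after Mut.oligo, 778, 894, 730 and 748 CPM after miR-124-5p and 886, 867, 636 and 671 CPM after miR-92a-1-5p. These were again apart in all 3 conditions. For Gja1 the 6 h values were 44.2, 26.6, 19.4 and 53.7 CPM after Mut.oligo, 39.7, 21.7, 31.3 and 29.7 CPM after miR-124-5p and 29, 25.3, 42.6 and 44.6 CPM after miR-92a-1-5p. Its 5 d values were 206, 123.9, 127 and 154 CPM after Mut.oligo, 221, 209, 128 and 150 CPM after miR-124-5p and 272, 206, 117 and 133 CPM after miR-92a-1-5p. Gja1 was apart too, and its highest values in oligoribonucleotide libraries at 5 d came from batches H and I. For Sox9 the 6 h values were 32.1, 24.9, 18.1 and 35.1 CPM after Mut.oligo, 34.8, 20.1, 27.5 and 28 CPM after miR-124-5p and 28.2, 24.8, 33.3 and 35.5 CPM after miR-92a-1-5p. Its 5 d values were 45, 38.2, 36.1 and 40.1 CPM after Mut.oligo, 55, 45.9, 32 and 36.2 CPM after miR-124-5p and 59.5, 46.6, 35.6 and 34.1 CPM after miR-92a-1-5p. For Sox9 the times overlapped after both miRNAs and were apart after Mut.oligo.

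Vim at 6 h was at 201, 186, 136 and 250 CPM after Mut.oligo, 211, 139, 203 and 170 CPM after miR-124-5p and 170, 174, 194 and 246 CPM after miR-92a-1-5p. At 5 d Vim was at 178, 121, 159 and 161 CPM after Mut.oligo, 239, 176, 130 and 131 CPM after miR-124-5p and 172, 178, 133 and 130 CPM after miR-92a-1-5p. As in untreated cultures, the times overlapped in each condition and Vim was not called. Hes1 at 6 h was at 2.53, 2.77, 2.67 and 3.29 CPM after Mut.oligo, 3.57, 2.07, 2.95 and 2.76 CPM after miR-124-5p and 2.99, 2.88, 3.23 and 3.35 CPM after miR-92a-1-5p. At 5 d Hes1 was at 2.95, 3.85, 3.52 and 2.93 CPM after Mut.oligo, 4.06, 2.97, 4.13 and 2.41 CPM after miR-124-5p and 3.25, 2.7, 2.52 and 2.57 CPM after miR-92a-1-5p. Hes1 stayed within a narrow range at a low level. Hes5 at 6 h was at 7.78, 5.35, 4.66 and 8.81 CPM after Mut.oligo, 9.56, 3.15, 6.2 and 7.1 CPM after miR-124-5p and 7.8, 5.6, 7.08 and 6.87 CPM after miR-92a-1-5p. At 5 d Hes5 was at 7.28, 9.78, 7.54 and 5.24 CPM after Mut.oligo, 8.09, 6.29, 6.51 and 4.11 CPM after miR-124-5p and 7.09, 8.37, 8.65 and 5.66 CPM after miR-92a-1-5p. Hes5 also overlapped between the times in each condition. The change from 6 h to 5 d after each oligoribonucleotide was tested against that in untreated cultures as an interaction over the 32 libraries. None of the 32 genes was called for any of the 3 oligoribonucleotides by edgeR without a covariate (0.0% of all genes). At an unadjusted p under 0.05 the counts were 1 for Mut.oligo (Id3, against 5.55% of all genes) and 0 for both miRNAs (2.64% with miR-124-5p and 3.92% with miR-92a-1-5p). With the batch covariate none was called by edgeR, against 0.0441% of all genes higher and 0.093% lower for miR-92a-1-5p, 0.00979% lower for Mut.oligo and 0.0049% lower for miR-124-5p. The counts at an unadjusted p under 0.05 were then 12, 3 and 5 of the 32, against 10.8%, 4.46% and 3.66% of all genes. All 3 tests used the same untreated libraries.

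Levels of these genes differed between experiment batches within a time. At 6 h Gfap ranged from 6.48 to 67.6 CPM over the 16 libraries, a 10.4-fold range. It was at 35.9 to 41.5 CPM in the 4 libraries of batch E, 1 of each condition, at 67.6 CPM in batch G and at or below 12.7 CPM in batches A, D and F. At 5 d Gfap ranged from 32.4 to 507 CPM, a 15.7-fold range, with 402 to 507 CPM in the 4 libraries of batch I and 90 to 115 CPM in the 4 of batch M. For Gfap the libraries of 1 batch lay closer together than the libraries of 1 condition did, at either time. Relative to the mean of the 16 libraries of 6 h, all 32 genes were below it in batches D and F, 31 of 32 were above it in batch E and all 32 in batch G. At 5 d, 31 of 32 were above the mean in batch L, 27 in batch I and 25 in batch H, and 28 were below it in batch K, 27 in M and 24 in J. The median over all genes moved by 0.020 or less on the log2 scale in each batch, while the median over the 32 genes lay between -0.40 (D) and 0.40 (G) at 6 h and between -0.24 (K) and 0.36 (L) at 5 d.

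**Figure D2:**
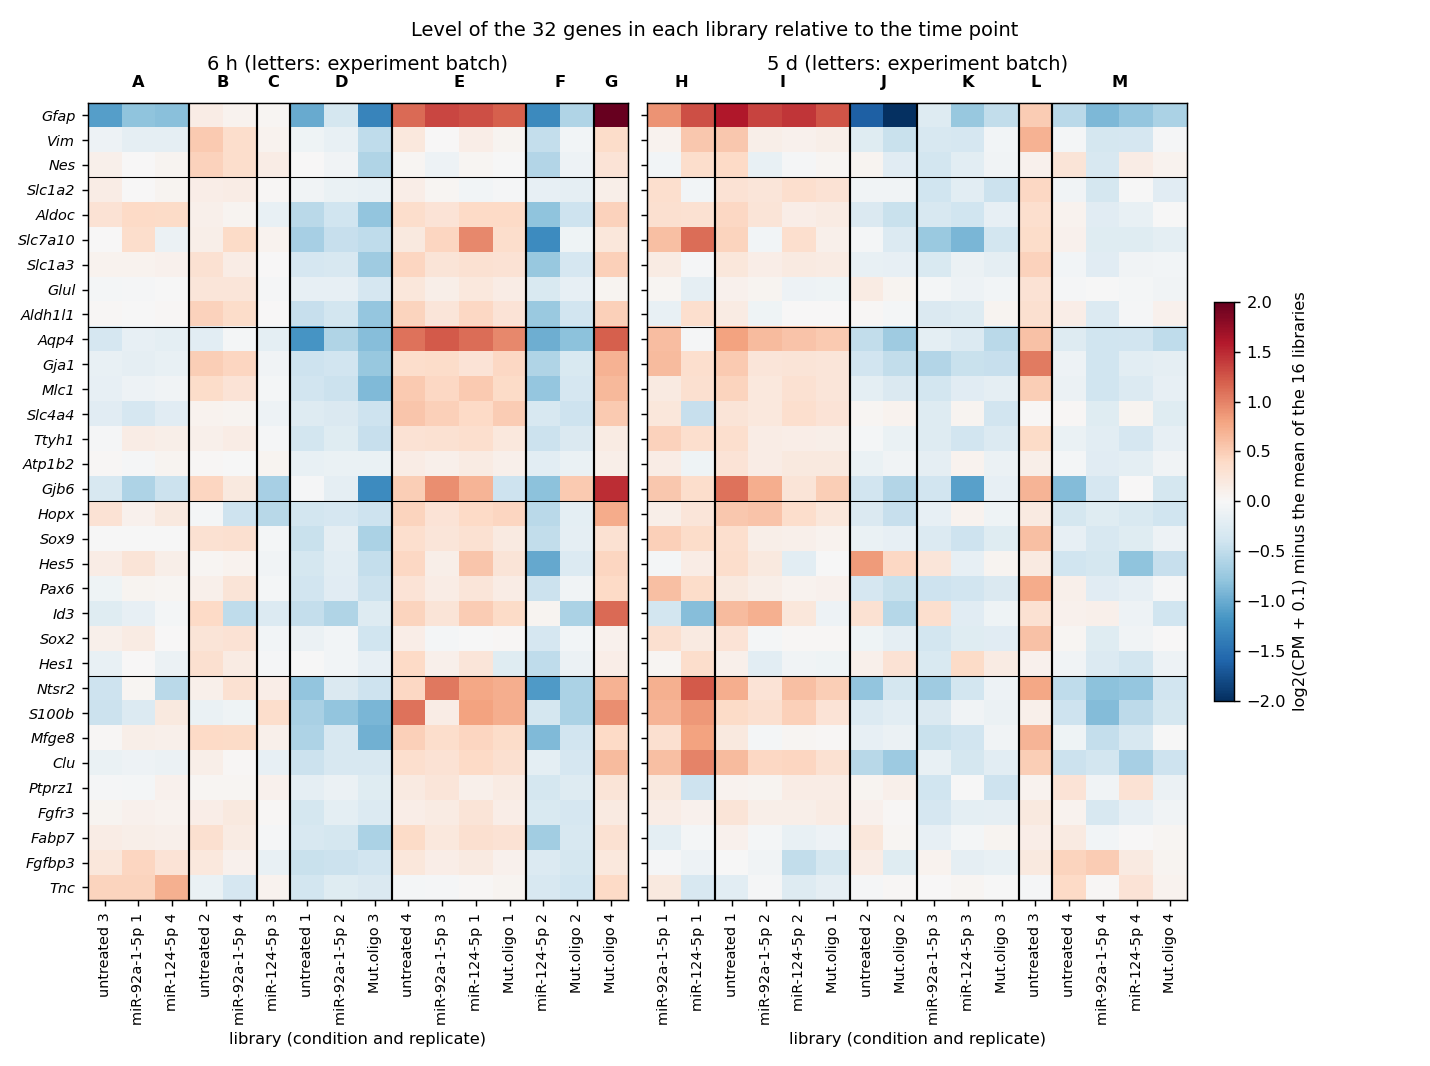
Level of the 32 genes (rows, by role) in each library (columns, grouped by experiment batch, with condition and replicate below), as log2(CPM + 0.1) minus the mean of the 16 libraries of that time, with the colour scale ending at 2. Columns of a batch share their colour across conditions, with batches D and F low for all 32 genes at 6 h and batch G high.

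The share of the variation between libraries that went with batch was computed as a description, from the sums of squares of log2 CPM. Its median over the 32 genes was 91.7% at 6 h (from 55.9% to 98.1%) and 82.9% at 5 d (from 31.5% to 97.2%), against 62.1% and 53.4% over all genes. The 7 batches of 6 h and 6 of 5 d hold 40% and 33.3% of the degrees of freedom. The share that went with condition had a median of 5.58% at 6 h and 12.4% at 5 d, against 16.9% and 13.1% over all genes. The 4 conditions hold 20% of the degrees of freedom at either time. Batch held the larger share for all 32 genes at 6 h and for 29 of 32 at 5 d, compared with 91.2% and 90.7% of all genes. The exceptions at 5 d were Nes (31.5% with batch and 50.9% with condition), Aldh1l1 (38.4% and 50%) and Fabp7 (48.5% and 72.1%). Batches and conditions were not fully crossed, so that the 2 shares overlap. In untreated cultures at 6 h, replicate 1 (batch D) was the lowest library for 28 of the 32 genes, against 28.6% of all genes, and replicate 4 (batch E) the highest for 23, against 21.3% of all genes.

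**Figure D3:**
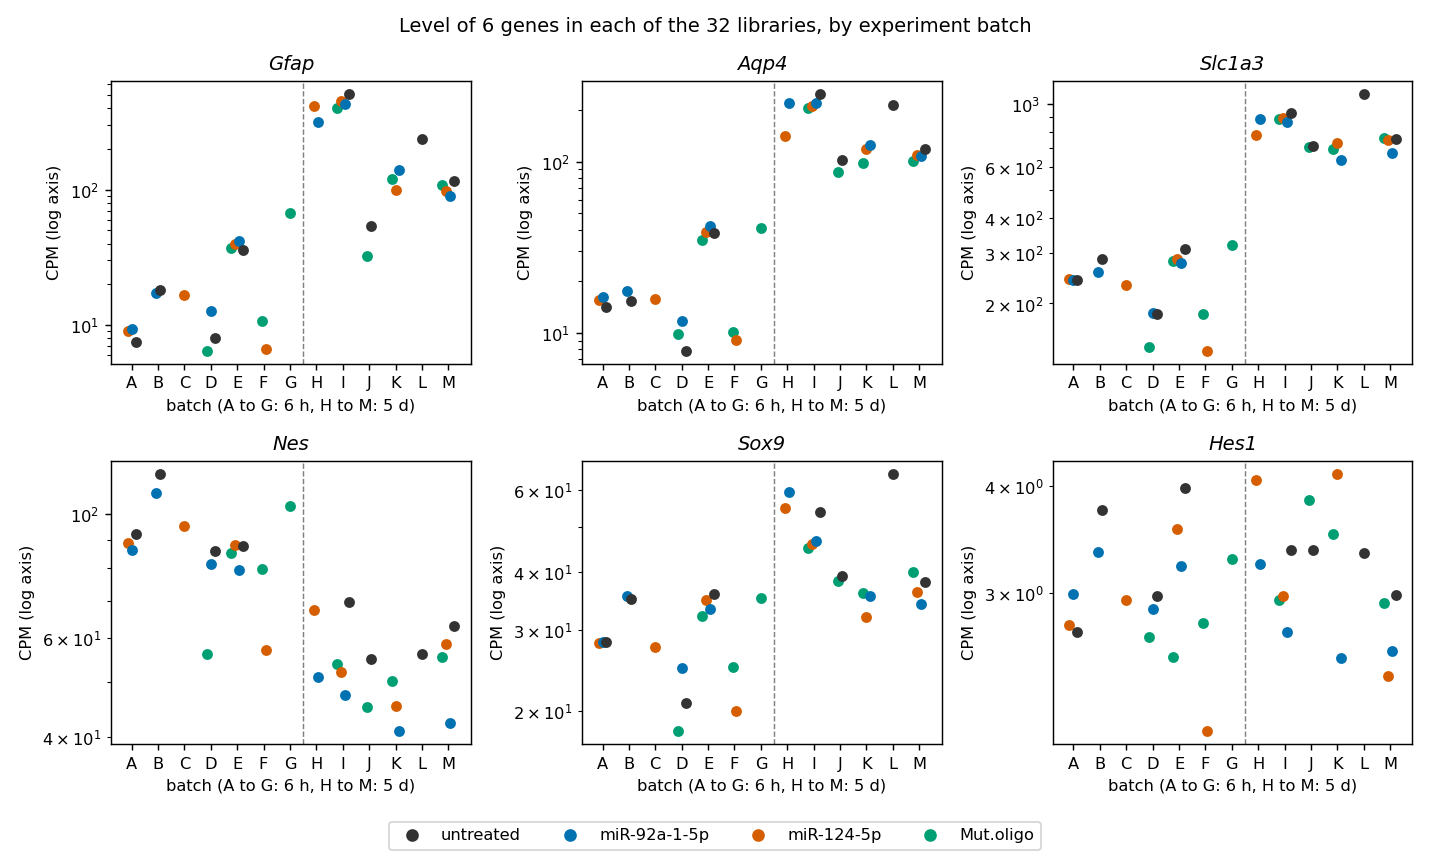
CPM on a log axis (y axis) of Gfap, Aqp4, Slc1a3, Nes, Sox9 and Hes1 in each of the 32 libraries (points, coloured by condition), by experiment batch (x axis, A to G at 6 h and H to M at 5 d). Gfap spans 6.48 to 67.6 CPM at 6 h and 32.4 to 507 CPM at 5 d, mostly between batches, while Hes1 stays between 2.07 and 4.13 CPM.

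The change over time was refitted with batch as a random block (limma-voom, consensus correlation 0.368), in which batch remains nested in time. In untreated cultures 18.3% of all genes were called higher and 14.6% lower in that fit, and 21 of the 32 genes were higher and 3 lower. As the summed level of all 32 genes, untreated libraries held 2510 to 3680 CPM at 6 h and 5770 to 7740 CPM at 5 d, without overlap. The sums by batch ran from 2170 to 3830 CPM over all conditions at 6 h and from 4960 to 7740 CPM at 5 d. Every batch of 5 d thus had a higher sum than every batch of 6 h.

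No gene of the 32 was called for an oligoribonucleotide against untreated cultures at 6 h (edgeR without a covariate, 0.0% of 18755 genes tested for each). At an unadjusted p under 0.05 the counts were also 0 for each of the 3 oligoribonucleotides, against 4.75% of all genes for miR-92a-1-5p, 9.49% for Mut.oligo and 4.54% for miR-124-5p. The median log2 fold changes were -0.01 for miR-92a-1-5p, -0.09 for miR-124-5p and -0.04 for Mut.oligo. With the experiment batch as a covariate none of the 32 was called either (edgeR and DESeq2). In that edgeR fit 0.0746% of all genes were called higher and 0.133% lower for miR-92a-1-5p, 0.0213% lower for Mut.oligo and none for miR-124-5p, while 5, 1 and 4 of the 32 in this order had an unadjusted p under 0.05. The shares of all genes at that p were 13.4%, 8.47% and 5.79%. Under that covariate, libraries that are alone in their batch, miR-124-5p replicate 3 and Mut.oligo replicate 4, do not contribute to the comparison. Within the batches shared with untreated cultures at 6 h (D and E), 20 of the 32 genes were lower in both after Mut.oligo. That compares with 33.3% of all genes, and 3 of the 32 were higher in both, against 21.3%. The median difference in those batches was -0.12 over the 32 genes and -0.024 over all genes. After miR-124-5p 9 were lower and 10 higher in both batches (A and E), against 28.4% and 23.7% of all genes. After miR-92a-1-5p 4 were lower and 5 higher in all 4 (A, B, D and E), against 11.3% and 11.6%.

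At 5 d, again no gene of the 32 was called without a covariate (edgeR, and DESeq2 without batch). Over 19333 genes tested in edgeR, 0.00517% were called lower after miR-92a-1-5p, and 0.0% in any other direction or after another oligoribonucleotide. Most log2 fold changes were below 0: 31 of 32 after Mut.oligo, 25 after miR-124-5p and 28 after miR-92a-1-5p, with medians of -0.25, -0.13 and -0.16. The medians over all genes were 0.003, 0.003 and -0.001 in this order. The counts at an unadjusted p under 0.05 were 5, 5 and 3, all lower, against 2.79%, 2.6% and 3.63% of all genes in either direction. All 3 comparisons used the same 4 untreated libraries, of which replicate 3 was the single library of batch L, where 31 of the 32 genes were high. Untreated replicate 3 is effectively dropped when batch is a covariate. With batch as a covariate 30, 28 and 30 of 32 were below 0, while the medians over all genes were -0.001, 0.0 and -0.007. By edgeR 13, 16 and 16 of the 32 had an unadjusted p under 0.05, against 4.2%, 4.79% and 10.8% of all genes. In that fit 0.0466% of all genes were called lower after Mut.oligo and 0.0259% after miR-124-5p, and none of the 32. Within the batches that held both groups, 24 genes were lower in both batches (I and M) after miR-92a-1-5p, against 27.7% of all genes. After miR-124-5p 26 were lower in both (28.5% of all genes), and after Mut.oligo 18 were lower in all 3 (I, J and M, 14.1%). No gene of the 32 was higher in all 3 after Mut.oligo, against 13.1% of all genes. Beside this, the medians of all genes in those batches lay between -0.010 and 0.004 on the log2 scale.

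**Figure D4:**
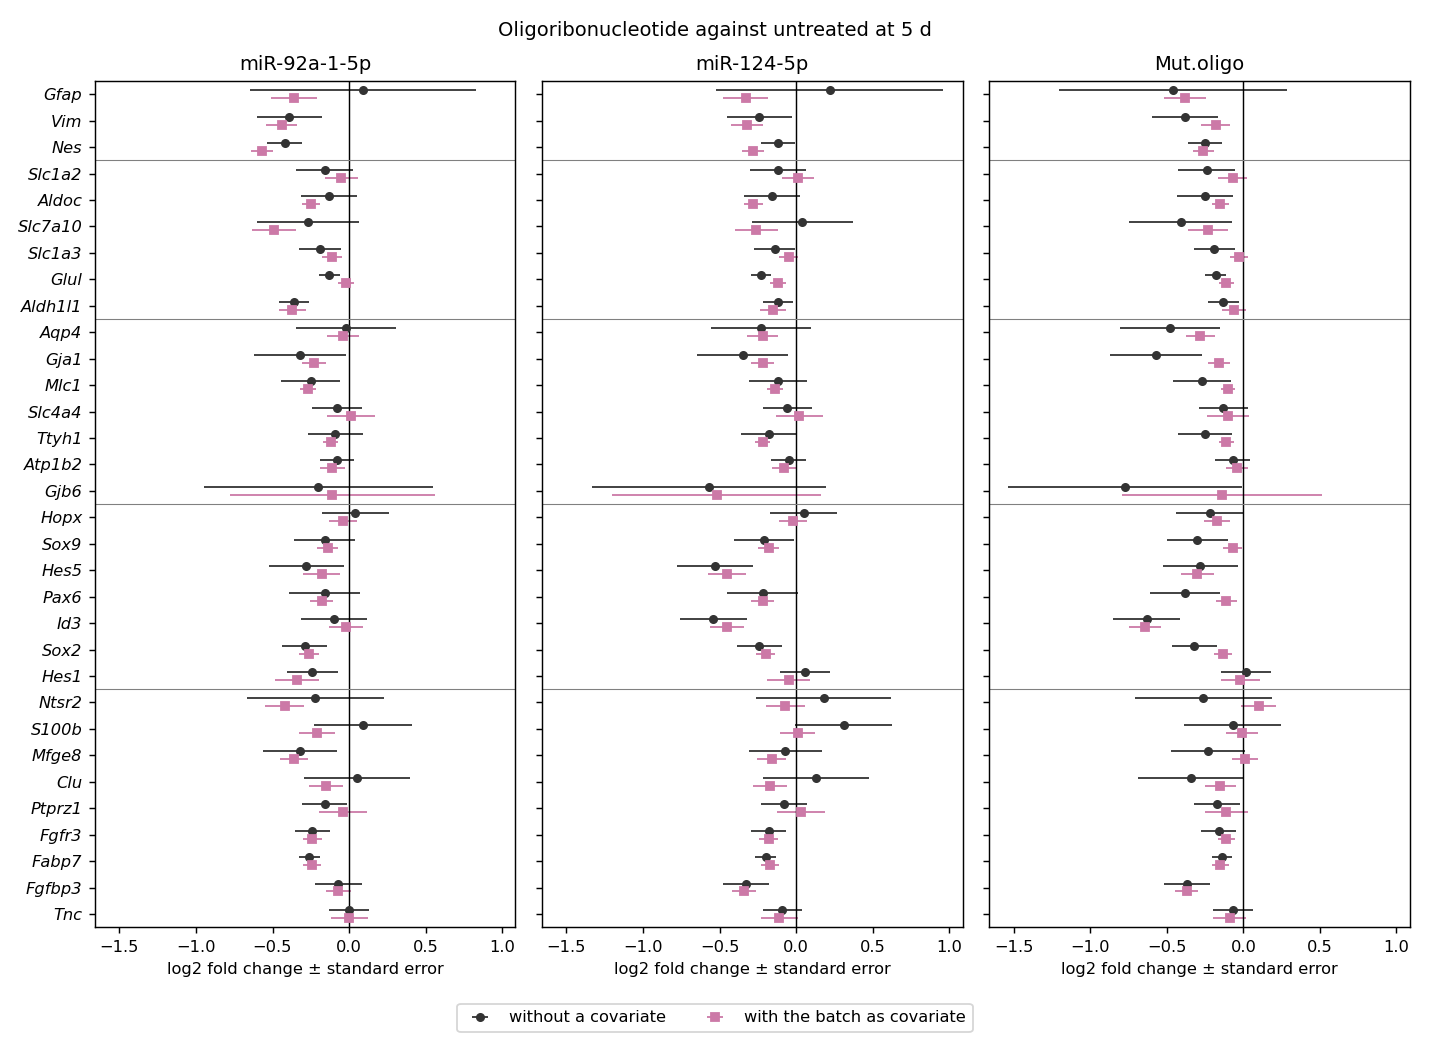
Log2 fold change of each oligoribonucleotide against untreated at 5 d (x axis) with its standard error (bars) for the 32 genes (y axis), without a covariate (circles) and with the experiment batch as covariate (squares). Most points lie left of 0 in all 3 panels, and Nes after miR-92a-1-5p lies at -0.42 without and -0.57 with the covariate.

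Nes was the 1 member called by edgeR for an oligoribonucleotide against untreated cultures once batch was a covariate. At 5 d it was at 54, 45.3, 50.2 and 55.6 CPM after Mut.oligo, 67.5, 52.2, 45.4 and 58.6 CPM after miR-124-5p and 51.1, 47.5, 40.9 and 42.4 CPM after miR-92a-1-5p, against 69.5, 55, 56.2 and 63 CPM in untreated cultures. All 4 miR-92a-1-5p libraries were below all 4 untreated ones, which also held for Aldh1l1 and Fabp7 (1.61% of the 19333 genes tested at 5 d lay below in this way). Without a covariate the log2 fold change of Nes was -0.42 ± 0.113 (adjusted p = 0.503, edgeR). With the batch covariate it was -0.57 ± 0.0724 (adjusted p = 0.0045, edgeR, 0.347% of all genes called lower), and with DESeq2 and batch -0.57 (adjusted p = 1.19e-08, 0.595%). Within the shared batches the differences were -0.57 and -0.55. Nes was not called after miR-124-5p or Mut.oligo, at -0.28 ± 0.0724 and -0.26 ± 0.066 with the covariate, and the difference between the oligoribonucleotides was not tested here. At 6 h Nes was at 85.2, 79.6, 56.3 and 103 CPM after Mut.oligo, 88.2, 57.2, 95.1 and 88.8 CPM after miR-124-5p and 86.3, 81.4, 79.4 and 109 CPM after miR-92a-1-5p, overlapping the untreated values. Its interaction between miR-92a-1-5p and time was -0.46 ± 0.149 with batch (adjusted p = 0.221, edgeR) and was not called.

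Id3, a helix-loop-helix inhibitor induced by BMP signaling, was at 11.1, 8.82, 8.79 and 7.59 CPM in untreated cultures at 5 d. After the oligoribonucleotides it was at 6.63, 4.78, 6.67 and 5.41 CPM after Mut.oligo, 3.91, 8.31, 6.08 and 6.65 CPM after miR-124-5p and 5.51, 11.8, 8.99 and 7.61 CPM after miR-92a-1-5p. All 4 Mut.oligo libraries were below all 4 untreated ones, as for Fabp7 (1.29% of all genes). The log2 fold change after Mut.oligo was -0.63 ± 0.218 without a covariate (adjusted p = 0.999, edgeR) and -0.64 ± 0.103 with batch (adjusted p = 0.0616, edgeR). DESeq2 with batch called it, at -0.65 (adjusted p = 0.000181, with 0.0879% of all genes called lower). Within batches I, J and M the differences ran from -0.88 to -0.49. The lowest Id3 value at 5 d was in a miR-124-5p library, replicate 1 of batch H, a batch without an untreated library.

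Ntsr2 was at 1.34, 1.04, 2.82 and 1.62 CPM after miR-92a-1-5p at 6 h and 11.3, 8.27, 4.16 and 3.84 CPM at 5 d. Within shared batches it lay above untreated at 6 h in 4 of 4 (by 0.21 to 0.66 on the log2 scale) and below it at 5 d in 2 of 2 (-0.47 to -0.31). The interaction was -0.70 ± 0.667 without a covariate (adjusted p = 1.0, edgeR), -0.90 ± 0.195 with batch (adjusted p = 0.0591, edgeR) and -0.89 ± 0.235 by DESeq2 with batch (adjusted p = 0.0177, with 0.348% of all genes called lower and 0.118% higher). After Mut.oligo, Ntsr2 also lay above untreated at 6 h in 2 of 2 shared batches (0.32 to 0.39), while its differences at 5 d ran from -0.24 to 0.44. After miR-124-5p the differences of Ntsr2 ran from -0.14 to 0.36 at 6 h. At 5 d Ntsr2 lay below untreated in 2 of 2 after miR-124-5p (-0.27 to -0.14). Fabp7 was lower than untreated in all 4 libraries after each of the 3 oligoribonucleotides at 5 d. Its untreated values were 691, 760, 713 and 735 CPM, and the others were 607, 671, 676 and 670 CPM after Mut.oligo, 637, 591, 636 and 658 CPM after miR-124-5p and 570, 637, 585 and 629 CPM after miR-92a-1-5p. The log2 fold changes were small, -0.14 ± 0.0673, -0.20 ± 0.0673 and -0.26 ± 0.0673, and none was called (edgeR). Glul was likewise below untreated in all 4 libraries after miR-124-5p (0.998% of all genes), at 348, 367, 367 and 382 CPM against 418, 440, 481 and 387 CPM.

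Further genes of the same biology, from lists of related genes, moved with time as follows in untreated cultures, with 19.1% of all genes higher and 14.3% lower as the background given above. Of 40 further astrocyte genes 33 were higher and 1 lower, among them Mt2 (a metallothionein, log2 fold change 4.15), Cldn10 (a claudin, 3.47) and Sparcl1 (a secreted matricellular protein, 2.42). Of 20 further radial glia genes 5 were higher and 6 lower, with Dbi (1.31), Lrig1 (0.94) and Qk (0.90) among the higher and Pou3f2 (-0.94) among the lower. Of 27 genes of the Notch pathway 2 were higher and 8 lower, the latter including Rbpj (-0.88), the DNA-binding partner of Notch, Hes6 (-0.97), the coactivator Maml3 (-1.16) and Mfng (-1.82), a Notch-modifying glycosyltransferase. Of 34 reactive astrocyte genes tested 8 were higher (among them Fbln5 1.09 and Ggta1 0.99) and 6 lower (among them Fkbp5 -1.0 and B3gnt5 -0.75). The largest changes among those called were 3.16 for Serpina3n and -1.17 for H2-T23. The summed level of the further astrocyte genes was 2970 to 3610 CPM at 6 h and 5420 to 6810 CPM at 5 d, without overlap, while that of reactive genes overlapped (310 to 381 and 265 to 444 CPM).

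Markers of other cells moved with time beside the 32 genes. Of 10 neuronal markers 1 was higher and 3 lower (summed level 8930 to 10100 CPM at 6 h and 6840 to 10100 CPM at 5 d), and none of the 10 was at 3 counts or fewer throughout a group. All 10 markers of dividing cells were lower (257 to 414 and 107 to 118 CPM), and of 7 markers of intermediate progenitors tested 4 were lower and 1 higher (86.5 to 119 and 43.8 to 88.1 CPM). Of 10 oligodendrocyte lineage markers 1 was higher and 4 lower (173 to 314 and 191 to 234 CPM), and Mog, 1 of the 40 genes near 0 only at 5 d, was among the latter. Of 10 microglial markers 3 were higher (19.8 to 32 and 33.1 to 52.3 CPM). Of 10 endothelial and mural markers 2 were higher and 2 lower (13.2 to 21 and 14.5 to 25.1 CPM), with Cldn5 and Tek at 3 counts or fewer in every untreated 6 h library and Kcnj8 in every untreated 5 d library. Of 10 fibroblast markers of the meninges 2 were higher (48.4 to 249 and 102 to 179 CPM), and of 10 ependymal and choroid plexus markers 1 was higher (32.5 to 168 and 61.1 to 133 CPM). The part of these cells in the values of the 32 genes was not tested.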

How the data were processed

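The deposited values were whole-number read counts per gene, made by the authors from stranded single-end reads with STAR (GRCm38) and counted over exons with featureCounts of Subread, without normalization. The 49671 genes were named through GENCODE M21 (49412 matched), and every column of the table was a sample of the series. Groups and experiment batches were taken from the sample labels. Genes were tested where 3 or more libraries reached 5 counts, in R 4.3.3 by edgeR 4.0.16 (TMM scaling, quasi-likelihood test, Benjamini-Hochberg adjustment over all genes tested). Changes over time and interactions were fitted on all 32 libraries, and oligoribonucleotides against untreated on the 16 libraries of their time. Standard errors were derived from the F statistic. CPM used TMM scaling over all 32 libraries, except in the check on how reads were counted, and log2 CPM for the batch shares a prior count of 2. Fits that included the experiment batch, as a fixed covariate or a random block, used edgeR, DESeq2 1.42.0 and limma 3.58.1. The fitting functions, but not every filter, were run on simulated counts. The simulated batch effects were smaller than the median spread of the 32 genes, so that batch effects as large as theirs were not covered.

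Other alternatives were RLE scaling, calls without the fold threshold, no count filter or one of 10 counts throughout, only the groups compared, a replicate block, and leaving out each replicate. Leaving out genes with opposite-strand exon overlap was added after seeing the data. The 32 genes, the further lists, and which genes are named were chosen with earlier results of these data known. Each library's value is given for 10 genes. For the called genes with the largest changes over time in untreated cultures (5 higher and 3 lower), at least the untreated libraries are given. For genes called for an oligoribonucleotide, at least the libraries of the groups compared are given. From every other list at most 4 genes were chosen, with Serpina3n and H2-T23 beyond these. Fabp7, Glul, Aldh1l1, Serpina3n, H2-T23 and the markers near 0 were named after their values were seen. Replicates of a group came from different experiment batches, and whether they came from separate animals was not given in the sources used here. Depth per library, 24514090 counts or more, limited the precision mainly for Gjb6. S100b, Slc7a10 and Ntsr2 were also low at 6 h, with lowest libraries at 0.236, 0.501 and 0.536 CPM.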

Additional observations from a re-analysis of the deposited data

Results flagged for a closer look

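Of 256 groups of 4 libraries (32 genes in 8 groups), 13 had a library whose gap to the nearest other, divided by the range of the group, was above Dixon's critical value for 4 values. That is 5.08% of the groups, and chance flags about 1 in 20. Untreated 6 h replicate 1 (batch D) was the low library for Slc1a2 (gap over range 0.899), Fgfr3 (0.834) and Fgfbp3 (0.961). In the same batch, miR-92a-1-5p 6 h replicate 2 was low for Slc7a10 (0.908) and Fabp7 (0.846). The miR-124-5p 6 h replicate 2 (batch F) was low for Nes (0.851) and Ptprz1 (0.969), and miR-124-5p 6 h replicate 1 (batch E) was high for Clu (0.869). At 5 d, untreated replicate 1 (batch I) was high for Slc4a4 (0.966), and untreated replicate 4 (batch M) was low for Hes1 (0.934) and high for Ptprz1 (0.958). Mut.oligo 5 d replicate 1 (batch I) was high for Atp1b2 (0.872) and low for Fabp7 (0.925). Whether these values go back to the experiment batch was not tested.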

How the results depend on the processing

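The counts of genes higher or lower from 6 h to 5 d stayed within 1.5 times the reported ones in every alternative run: 14 to 21 higher in untreated cultures, 14 to 20 after miR-92a-1-5p, and 14 to 21 after either other oligoribonucleotide, and 2 to 3 lower throughout. The low ends, 14 and 2, come from the fit without genes of opposite-strand overlap, which holds 23 of the 32. Leaving out 1 library at a time gave 20 to 22 higher in untreated cultures, 18 to 20 after miR-92a-1-5p, 18 to 21 after miR-124-5p and 17 to 22 after Mut.oligo, and 2 to 4 lower. For oligoribonucleotides against untreated at 5 d, the count of genes called moved from 0 to 1 after miR-92a-1-5p with the batch covariate (edgeR) and with DESeq2 and batch (Nes in both), and from 0 to 1 after Mut.oligo with DESeq2 and batch (Id3). The interaction of miR-92a-1-5p with time moved from 0 to 1 with DESeq2 and batch (Ntsr2). The cause was not tested. No direction of a called value reversed. Among values of single genes, 4 gained a call under an alternative, and leaving out a library removed 17 calls and added 1. Of same-numbered libraries of 1 time, 18 of 48 pairs correlated above 0.1 (from -0.216 to 0.408). The counts were 27 of 31 for pairs of 1 batch and 28 of 161 for pairs of different batches at the same time. Same-numbered libraries can share a batch: replicate 4 at 5 d was batch M in every condition. Whether the numbers pair the libraries beyond the batch was not tested. A replicate block left the counts over time at 21 and 3 in untreated cultures. They were 19 and 3, 20 and 3, and 21 and 3 after the oligoribonucleotides, and all counts for oligoribonucleotides stayed at 0.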
